A study of Mus musculus with 12 samples.

Results

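The small leucine-rich proteoglycans are secreted matrix proteins built around a run of leucine-rich repeats, and 9 genes of this family were followed here: Prelp, Dcn, Lum, Bgn, Fmod, Ogn, Omd, Aspn and Podn. They were taken as the rows of the deposited expression tables whose gene symbol equals one of these names, which found all 9 among the 52636 genes listed. The 9 genes were chosen by family membership and selected on measured values, namely with their levels and their differences after Klf4 knockdown in these same libraries known beforehand, so their values are given as a description, without a test of their own. Where a member is said to pass a threshold, this gives its place in a fit of all genes and is no support for its difference. Bulk RNA-seq covered 12 mouse libraries in 4 groups of 3. Airway smooth muscle cells (SMCs), bought as primary C57BL/6 cells and given as tracheal in the sample source but as lung airway in the titles, received a scrambled control RNA (labelled genotype WT, called Scr) or a small interfering RNA against Klf4 (labelled Klf4 KD, called siKlf4). PDGFR-β+ cells from lungs of C57BL/6 mice aged 12 weeks received the same 2 treatments. By the study's methods these were Zs+ lung cells of Pdgfrb-CreERT2, ROSA26R(Zs/+) mice given tamoxifen, in which the Zs reporter marks cells that used the Pdgfrb promoter at induction together with their descendants. The labels name no reporter. The labels do not say which animals or cultures the libraries came from, and p-values measure the spread between these libraries.

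Decorin (Dcn), biglycan (Bgn) and asporin (Aspn) form a first class of the family, fibromodulin (Fmod), lumican (Lum), prolargin (Prelp) and osteomodulin (Omd) a second, and osteoglycin (Ogn) and podocan (Podn) belong to further classes. Their concave repeat domain binds fibrillar collagen and sets the spacing and width of collagen fibrils. Several also hold TGF-β or engage cell surface receptors, and decorin, biglycan and lumican are familiar components of the lung interstitium. Most carry sugar chains, of the chondroitin or dermatan sulfate kind on decorin and biglycan and of the keratan sulfate kind on fibromodulin, lumican and osteomodulin. KLF4 is a zinc-finger transcription factor that binds GC-rich DNA and so-called CACCC boxes.

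Values are in TPM, the share of a library's transcripts taken by a gene, scaled for transcript length and to a sum of 1000000. They can be compared between genes of a library. Between libraries they compare shares, which also move when a few abundant genes change. A gene passed the threshold, and is said to have risen or fallen, where limma's adjusted p for siKlf4 against Scr was under 0.05. Klf4 itself was at 89.6, 96.3 and 95.0 TPM in the Scr-treated SMCs and at 26.5, 16.3 and 18.8 TPM with siKlf4. In PDGFR-β+ cells it was between 134 and 146 TPM with Scr and between 12.3 and 13.8 TPM with siKlf4. It fell in both cell types. In SMCs it fell by 2.16 on the log2 scale (SE 0.163, limma adjusted p = 0.000752) and, in PDGFR-β+ cells, fell by 3.35 (SE 0.0767, limma adjusted p = 3.3e-06). The labelled cell types were checked against marker genes. The SMCs held the actin gene Acta2 (1031 to 3072 TPM) and Tagln (301 to 778 TPM), but Myocd stayed at or below 0.213 TPM, Des at or below 2.99 TPM, and Pdgfra and Pdgfrb were both at 175 TPM or more in every SMC library. The PDGFR-β+ cells held Pdgfrb (304 to 474 TPM) and also Acta2 (3454 to 4594 TPM). Ptprc, Pecam1, Cdh5, Epcam and Sftpc were at most 0.414 TPM in every library. Some other macrophage and endothelial markers were higher in PDGFR-β+ cells, with Lyz2 at 9.49 to 20.3 TPM, Cd68 at 6.04 to 9.62 TPM and Kdr at 11.8 to 17.1 TPM. In SMCs these 3 reached at most 2.93, 4.70 and 3.12 TPM. Over all genes tested, 15.6% rose and 12.9% fell in SMCs, and 25.3% rose and 15.3% fell in PDGFR-β+ cells. Of the 8 smooth muscle markers, 6 of the 7 tested rose with siKlf4 in SMCs, where their summed level went from 1495 to 2284 TPM up to 3411 to 4174 TPM. In PDGFR-β+ cells 3 of the 7 tested rose and 3 fell (5551 to 6408 TPM with Scr and 4708 to 5003 TPM with siKlf4). Of the 5 fibroblast markers, 2 of the 5 tested fell in SMCs (summed level 1862 to 2031 TPM with Scr and 1565 to 1684 TPM with siKlf4) and 3 of the 5 fell in PDGFR-β+ cells (2587 to 3025 TPM and 1731 to 2322 TPM). Of the 5 pericyte markers, 2 of the 5 tested fell in SMCs (25.3 to 28.3 TPM and 20.9 to 21.5 TPM) and 1 of the 3 tested fell in PDGFR-β+ cells (30.0 to 45.5 TPM and 13.6 to 19.2 TPM). Of the 9 cartilage, bone and tendon markers, 1 of the 5 tested rose and 1 fell in SMCs (126 to 167 TPM and 108 to 145 TPM), and 1 of the 3 tested rose in PDGFR-β+ cells (38.3 to 42.2 TPM and 42.9 to 50.3 TPM). The 5 macrophage markers summed to at most 7.19 TPM in SMCs (2 tested by limma, with 0 past the threshold and 1 at an unadjusted p under 0.05). Their PDGFR-β+ sums, with 2 of the 3 tested lower, came to 28.6 to 29.9 TPM with Scr and 18.7 to 22.8 TPM with siKlf4. The 4 endothelial markers summed to 1.28 to 2.51 TPM and 3.37 to 3.87 TPM in SMCs (1 tested, and it rose) and to 15.2 to 18.4 TPM and 14.0 to 16.0 TPM in PDGFR-β+ cells (2 tested, 1 of which rose), and the 5 epithelial markers to at most 0.938 TPM, with none tested. Gm42418, a gene model that overlaps ribosomal RNA, took 18001 to 32323 TPM of the Scr-treated and 44405 to 57700 TPM of the siKlf4-treated SMC libraries, and overlapped between the groups in PDGFR-β+ cells (34778 to 63263 and 35974 to 62541 TPM). The part of these markers and of Gm42418 in the differences below was not tested. In bulk RNA, fewer cells that express a gene and less RNA per cell cannot be told apart. In the SMC table, 1 Scr and 1 siKlf4 library carry no replicate number, and they are called the unnumbered libraries.

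With Scr, Bgn was by far the most abundant member in both cell types. It averaged 3567 ± 136 TPM (SD, n = 3) in SMCs, rank 18 among all genes listed, and 4695 ± 150 TPM in PDGFR-β+ cells, rank 12. In SMCs the order then ran Prelp (955 ± 38.8 TPM), Ogn (690.0 ± 268 TPM), Dcn (409 ± 101 TPM), Omd (67.0 ± 36.0 TPM), Aspn (44.9 ± 22.8 TPM), Podn (31.6 ± 1.29 TPM), Fmod (25.2 ± 5.80 TPM) and Lum (15.6 ± 1.13 TPM). Prelp and Ogn overlapped between libraries, as did each neighbouring pair from Omd to Fmod, so those parts of the order were not resolved. In PDGFR-β+ cells the order after Bgn was Prelp (242 ± 52.6 TPM), Ogn (212 ± 78.9 TPM), Dcn (71.2 ± 18.7 TPM), Fmod (37.4 ± 12.2 TPM), Aspn (29.7 ± 9.93 TPM), Podn (7.96 ± 2.21 TPM), Omd (4.31 ± 1.43 TPM) and Lum (0.516 ± 0.154 TPM). There Prelp overlapped Ogn and Fmod overlapped Aspn. Set side by side across the 2 tables, Prelp, Dcn, Lum, Ogn, Omd and Podn were higher in every Scr-treated SMC library than in any Scr-treated PDGFR-β+ library, with ratios of the means of 3.95, 5.74, 30.3, 3.25, 15.6 and 3.98. Bgn lay the other way, with a mean 1.32 times that of SMCs, and Fmod and Aspn overlapped. The tables were made for each cell type apart, so these ratios are descriptions without a test.

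**Figure D1:**
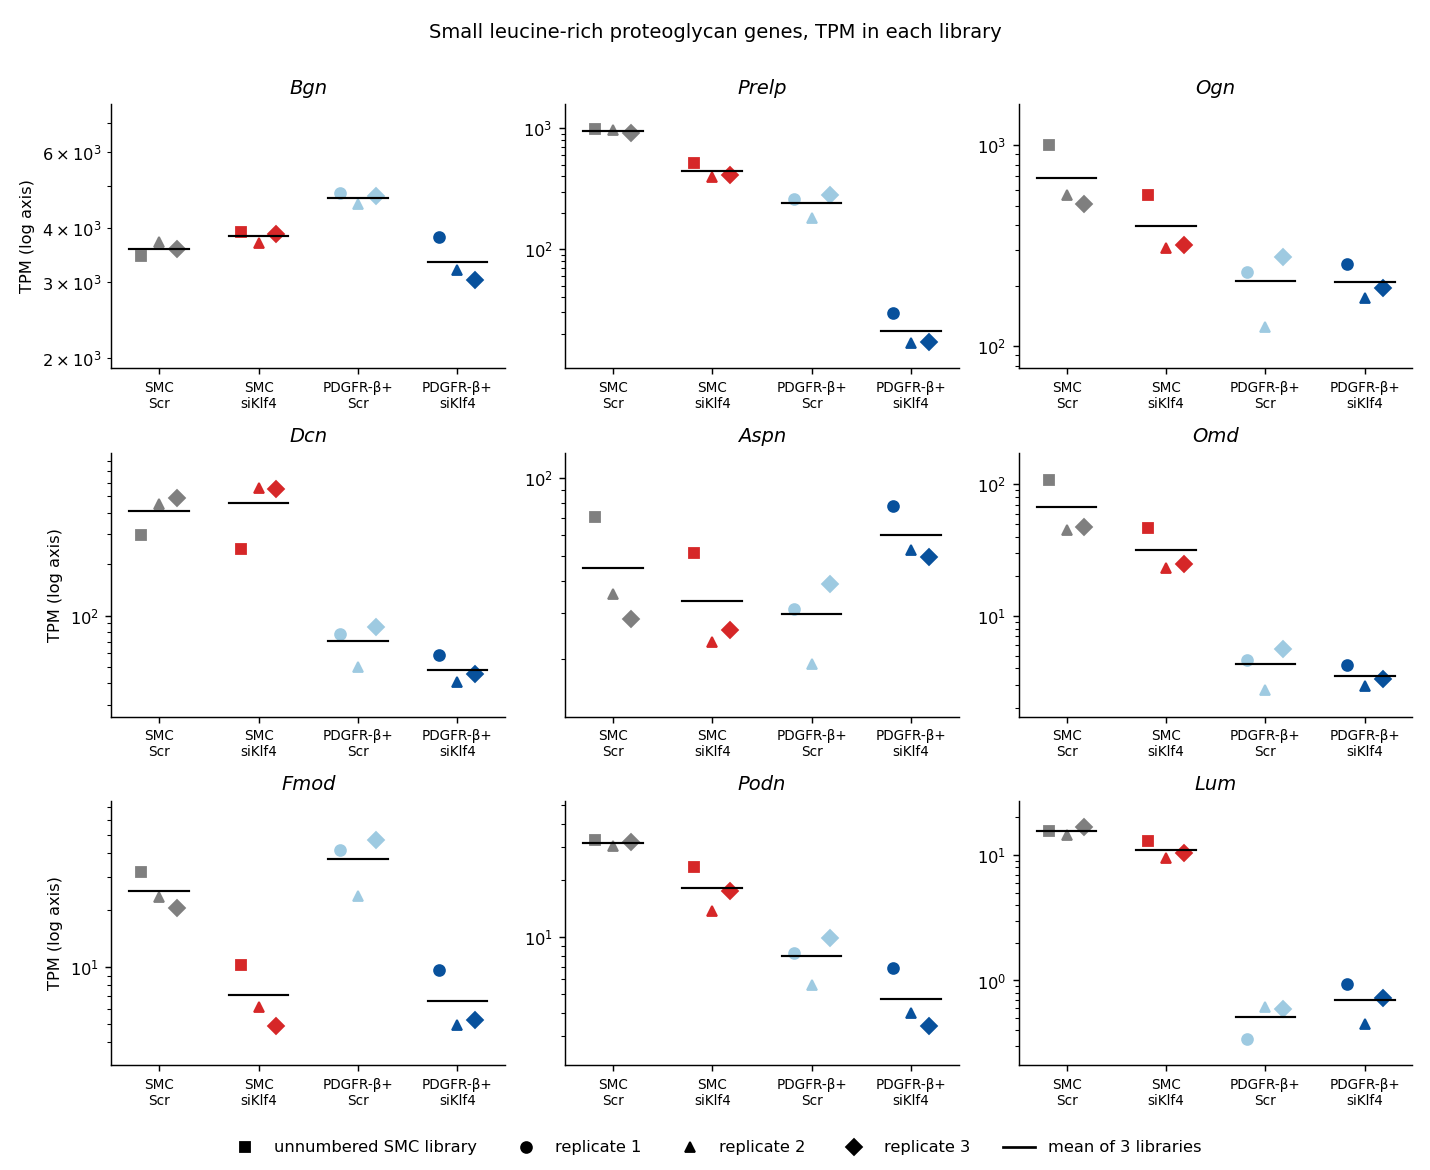
TPM of each of the 9 genes (panels, logarithmic vertical axes that differ between panels) in the 3 libraries of each group, with marker shape giving the replicate and a line at the group mean. Prelp and Fmod sat lower in every siKlf4 library than in any Scr library of the same cell type, Prelp between 16.6 and 29.6 TPM in siKlf4-treated PDGFR-β+ cells against 182 to 282 TPM with Scr.

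Prelp and Fmod were the 2 members that were lower with siKlf4 in both cell types without overlap between the groups. Prelp encodes prolargin, whose basic amino end binds heparin and heparan sulfate and which anchors collagen to basement membranes. It was at 985, 970.3 and 911 TPM in the Scr-treated SMCs and at 517, 392 and 415 TPM with siKlf4. In PDGFR-β+ cells it was at 262, 182 and 282 TPM with Scr and at 29.6, 16.6 and 17.0 TPM with siKlf4. The means with siKlf4 were 46.2% and 8.71% of those with Scr. The log2 difference, siKlf4 minus Scr on the scale of log2(TPM + 1), was -1.12 (SE 0.108) in SMCs and -3.48 (SE 0.246) in PDGFR-β+ cells, where it was the sixth most negative of 13694 genes tested (rank 6) against rank 239 of 13709 in SMCs. Fmod encodes fibromodulin, which steers the growth of collagen fibrils and their crosslinking. It was at 31.7, 23.3 and 20.5 TPM in the Scr-treated SMCs and at 10.3, 6.13 and 4.84 TPM with siKlf4, a log2 difference of -1.73 (SE 0.262). In PDGFR-β+ cells it was at 41.5, 23.7 and 47.2 TPM with Scr and at 9.67, 4.93 and 5.22 TPM with siKlf4, a log2 difference of -2.33 (SE 0.304). Every siKlf4 library lay below every Scr library, and the means with siKlf4 were 28.1% and 17.6% of those with Scr. Fmod differed less than Prelp in PDGFR-β+ cells and more than Prelp in SMCs.

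Prelp and Fmod lie on the same chromosome, and the annotation places no protein-coding gene between them. In GENCODE release M21 of the mouse build GRCm38 (mm10), Prelp occupies chr1:133910304-133921414 on the minus strand and Fmod chr1:134037254-134048277 on the plus strand, 115839 bases apart and pointing away from each other. The antisense gene Gm15851, which overlaps 4519 bases of Prelp, reached at most 1.83 TPM. The bases before the transcription start of Prelp and Fmod are shown because these genes were lower together, and those of Aspn because it went the other way in PDGFR-β+ cells. Each run holds the 250 bases before the RefSeq start (build GRCm38.p6), read along the gene's own strand, with CACCC in capitals wherever it occurs on either strand, so that GGGTG marks a match on the opposite strand. The Prelp run is chr1:133921402-133921651 (minus strand), the Fmod run chr1:134037004-134037253 (plus strand) and the Aspn run chr13:49544193-49544442 (plus strand).
Prelp: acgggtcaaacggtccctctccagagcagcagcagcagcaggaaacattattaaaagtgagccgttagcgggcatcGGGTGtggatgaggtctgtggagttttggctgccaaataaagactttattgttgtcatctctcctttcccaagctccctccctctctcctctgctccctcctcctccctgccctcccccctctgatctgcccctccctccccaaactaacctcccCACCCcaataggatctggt
Fmod: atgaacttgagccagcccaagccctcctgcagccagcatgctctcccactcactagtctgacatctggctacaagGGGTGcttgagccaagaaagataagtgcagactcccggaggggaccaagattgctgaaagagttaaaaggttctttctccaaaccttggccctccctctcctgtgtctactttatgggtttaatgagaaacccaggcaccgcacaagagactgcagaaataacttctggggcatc
Aspn: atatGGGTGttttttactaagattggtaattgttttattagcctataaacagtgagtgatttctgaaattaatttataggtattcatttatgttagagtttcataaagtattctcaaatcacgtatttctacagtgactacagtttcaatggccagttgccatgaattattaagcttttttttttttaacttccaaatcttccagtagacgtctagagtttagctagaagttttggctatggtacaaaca
Prelp had CACCC matches beginning 174 and 19 bases before the start, Fmod 1 match at 175 bases and Aspn 1 match at 246 bases. CACCC was present in 52% of the 32851 promoters of this length, so its presence sets none of these genes apart. The longer CACACCC, which contains CACCC, matched the Prelp run once, at 174 bases, and no run of the other members, against 6.93% of all promoters. CACGCCC matched the Bgn run at 201 bases and 1 of the 2 Podn runs at 225 bases, against 7.55% of all promoters. RefSeq promoters were found for 7 of the 9 members, in 8 runs, and Dcn and Lum had no entry. These matches are letters in a window and were not measured as binding.

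Among the first class, Bgn and Aspn differed in opposite directions in PDGFR-β+ cells. Bgn, which encodes biglycan, a collagen-binding proteoglycan with 2 glycosaminoglycan chains that also activates Toll-like receptors when released, was at 4825, 4531 and 4729 TPM with Scr and at 3807, 3188 and 3027 TPM with siKlf4 in PDGFR-β+ cells. Every siKlf4 library was lower than every Scr library, with a log2 difference of -0.50 (SE 0.0975). It remained among the most abundant genes, at rank 16. It no longer passed the threshold with quantile normalization (-0.26) or with no filter on low values. In SMCs Bgn was at 3433, 3705 and 3564 TPM with Scr and at 3904, 3692 and 3875 TPM with siKlf4, a log2 difference of 0.10 (SE 0.0655), and the groups overlapped. Aspn, which encodes asporin, which lacks the glycosaminoglycan attachment sites of decorin and binds collagen and TGF-β, was at 31.3, 19.1 and 38.8 TPM with Scr in PDGFR-β+ cells. With siKlf4 it was at 78.3, 52.8 and 49.7 TPM, 203% of the Scr mean, with a log2 difference of 1.02 (SE 0.268) and no overlap. It was the only member higher in every siKlf4 library, and only in that cell type. Without siKlf4 replicate 1, its log2 difference was 0.82 and no longer passed the threshold. In SMCs Aspn was at 70.9, 35.4 and 28.5 TPM with Scr and at 51.3, 23.2 and 25.8 TPM with siKlf4, and the groups overlapped (log2 difference -0.39, SE 0.396).

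Dcn, which encodes decorin, the collagen-binding proteoglycan that also traps TGF-β, showed no separation of the groups in either cell type. In SMCs it was at 295, 448 and 485 TPM with Scr and at 246, 561 and 554 TPM with siKlf4. The unnumbered library was the lowest of both groups, and the log2 difference of 0.08 (SE 0.342) became -0.13, -0.12 or -0.11 when the unnumbered Scr library, siKlf4 replicate 2 or siKlf4 replicate 3 was left out. In PDGFR-β+ cells Dcn was at 77.7, 50.2 and 85.9 TPM with Scr and at 58.4, 40.9 and 45.4 TPM with siKlf4. Only Scr replicate 2 reached into the siKlf4 range, and the log2 difference of -0.53 (SE 0.213) became -0.76 and passed the threshold without that library.

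Lum and Omd, the remaining members of the second class, were mainly SMC genes in these libraries. Lum encodes lumican, which regulates collagen fibril width and is best known for keeping the cornea clear. In SMCs it was at 15.5, 14.6 and 16.8 TPM with Scr and at 12.9, 9.49 and 10.4 TPM with siKlf4. The groups did not overlap, and the siKlf4 mean was 70.0% of the Scr mean (log2 difference -0.49, SE 0.127). Among the members that passed the threshold in SMCs, Lum changed its call most often when a single library was left out. It no longer passed when the unnumbered Scr library, Scr replicate 2 or 3 or siKlf4 replicate 2 or 3 was left out, with log2 differences of -0.53 to -0.40. In PDGFR-β+ cells Lum was between 0.339 and 0.942 TPM in all 6 libraries, which is under the minimum mean of 1 TPM, and it was not tested there. Omd encodes osteomodulin, also called osteoadherin, a keratan sulfate proteoglycan of bone that binds cells through an integrin. In SMCs it was at 108, 44.7 and 47.7 TPM with Scr and at 46.7, 23.0 and 24.98 TPM with siKlf4. The highest library of each group was the unnumbered one, and the unnumbered siKlf4 library reached into the Scr range. Within each pair of libraries of the same name, the siKlf4 value was 43.1%, 51.4% and 52.3% of the Scr value, and the log2 difference over the groups was -1.01 (SE 0.389). In PDGFR-β+ cells Omd was at 4.59, 2.75 and 5.57 TPM with Scr and at 4.22, 2.95 and 3.32 TPM with siKlf4, with overlapping groups (log2 difference -0.21, SE 0.223).

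Ogn encodes osteoglycin, or mimecan, a small keratan sulfate proteoglycan first purified from bone and found in vessel walls. In SMCs it was at 997, 564 and 508 TPM with Scr and at 565, 309 and 320.1 TPM with siKlf4. The groups met only through the unnumbered siKlf4 library (565 TPM), which lay above Scr replicate 2 (564 TPM) and Scr replicate 3 (508 TPM). Within libraries of the same name the siKlf4 value was 56.7%, 54.8% and 63.0% of the Scr value, and the log2 difference over the groups was -0.78 (SE 0.313), which became -1.06 and passed the threshold without the unnumbered siKlf4 library. In PDGFR-β+ cells Ogn was at 234, 125 and 278 TPM with Scr and at 258, 174 and 195 TPM with siKlf4, so that the means were 212 and 209 TPM. The log2 difference of 0.04 (SE 0.290) changed sign with median-ratio scaling (-0.07), without Scr replicate 2 (-0.30) and without siKlf4 replicate 1 (-0.12). Podn encodes podocan, a collagen-binding member first described in the kidney glomerulus. In SMCs it was at 32.8, 30.3 and 31.8 TPM with Scr and at 23.4, 13.8 and 17.7 TPM with siKlf4, lower in every siKlf4 library (log2 difference -0.79, SE 0.173). Without siKlf4 replicate 3 the log2 difference was -0.78 and did not pass the threshold. In PDGFR-β+ cells Podn was at 8.30, 5.596 and 9.97 TPM with Scr and at 6.87, 3.998 and 3.38 TPM with siKlf4, where siKlf4 replicate 1 lay above Scr replicate 2 (log2 difference -0.65, SE 0.263). It passed the threshold without either of those libraries, at -0.86 without Scr replicate 2 and -0.90 without siKlf4 replicate 1.

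**Figure D2:**
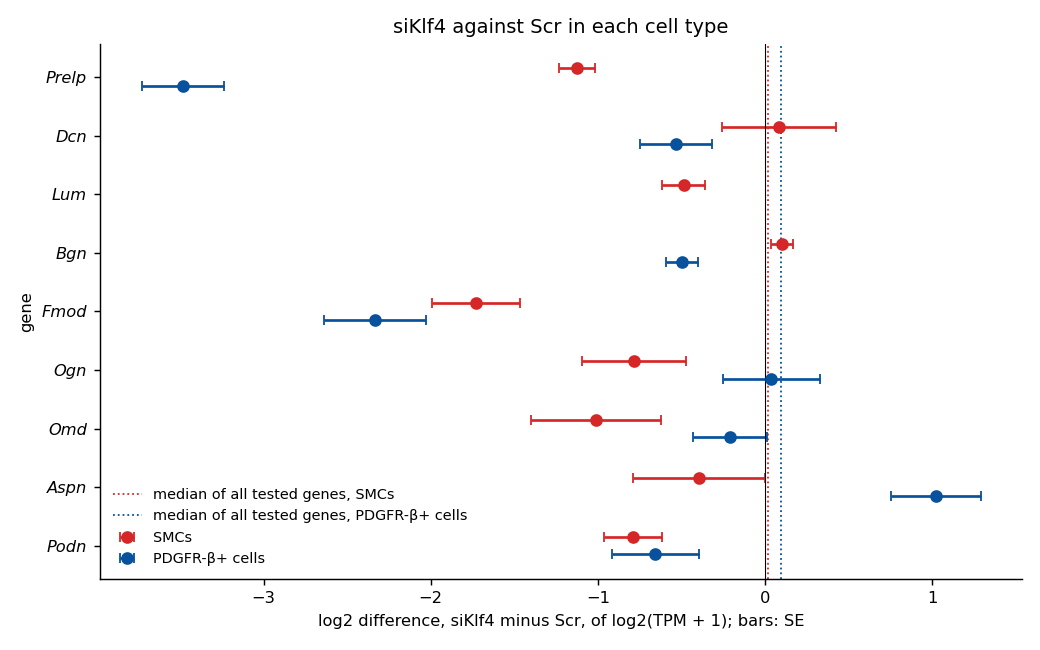
Log2 difference of log2(TPM + 1), siKlf4 minus Scr (horizontal axis), for each member (rows) in SMCs (red) and PDGFR-β+ cells (blue), with bars of 1 SE and dotted lines at the median of all tested genes. Prelp lies at -1.12 in SMCs and -3.48 in PDGFR-β+ cells, Aspn is the only point far to the right, at 1.02, and Lum has no point in PDGFR-β+ cells because it was not tested.

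Counted over the 9 genes, all 9 passed the minimum of 1 TPM in SMCs, and 4 of them (Prelp, Fmod, Lum and Podn) passed the threshold of an adjusted p under 0.05 by limma and were lower, with 0 higher (also 0 at an unadjusted p under 0.05). Over all 13709 genes tested in SMCs, 28.5% were past that threshold, 12.9% lower and 15.6% higher. In PDGFR-β+ cells 8 passed the minimum, with 3 lower (Prelp, Fmod and Bgn) and 1 higher (Aspn), against 40.6% of 13694 genes past the threshold, 15.3% lower and 25.3% higher. By groups that did not overlap, the same 4 members in SMCs and the same 4 in PDGFR-β+ cells stood apart, against 47.1% of the genes tested in SMCs (25.6% higher and 21.5% lower) and 53.8% in PDGFR-β+ cells (33.9% higher and 19.8% lower). The members were chosen with these contrasts known, so nothing is read from their share. Their median log2 difference was -0.78 in SMCs, where the median of all genes was 0.02, and -0.52 in PDGFR-β+ cells, where it was 0.10. Median-ratio scaling moved the median of all genes in PDGFR-β+ cells to 0.00, a shift that each value above takes with it, and it changed the split of all calls there from 62.3% higher to 46.9% higher without changing which members passed. Among the 4 numbered SMC libraries alone, 6 members were lower (Prelp, Fmod, Lum, Podn, Ogn and Omd) and 1 higher (Dcn), against 28.9% of all genes past the threshold. With a covariate that separated numbered from unnumbered SMC libraries, 7 were lower (the same 6 and Aspn) and 0 higher, against 40.1% of all genes. Without Scr replicate 2 in PDGFR-β+ cells, 5 were lower (Prelp, Fmod, Bgn, Dcn and Podn) and 1 higher, against 38.6%. Prelp and Fmod passed in both cell types under each of the alternatives run.

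The difference of the siKlf4 effect between the cell types was estimated for the 8 members tested in both, as the log2 difference in SMCs minus that in PDGFR-β+ cells. It was 2.36 (SE 0.298) for Prelp, 0.60 (SE 0.119) for Bgn, 0.62 (SE 0.448) for Dcn and 0.61 (SE 0.446) for Fmod, all on the side of a lower value in PDGFR-β+ cells. It was -1.42 (SE 0.533) for Aspn, -0.82 (SE 0.478) for Ogn, -0.80 (SE 0.492) for Omd and -0.13 (SE 0.345) for Podn. By limma's adjusted p under 0.05, 2 of the 8 were past the threshold for this difference (Prelp and Bgn, under all 20 alternatives), against 33% of all 13032 genes tested in both. Aspn was not, and passed in 5 of 20 alternatives. The members were chosen with their differences known, so nothing is read from these calls. The estimate for Podn changed sign in 3 alternatives. Klf4 itself was lowered less in SMCs than in PDGFR-β+ cells, by 1.19 on the log2 scale (SE 0.190, limma adjusted p = 0.00069). With siKlf4 the order of levels in PDGFR-β+ cells became Bgn (3341 TPM), Ogn (209 TPM), Aspn (60.2 TPM), Dcn (48.2 TPM), Prelp (21.1 TPM), Fmod (6.61 TPM), Podn (4.75 TPM), Omd (3.498 TPM) and Lum (0.703 TPM), with Prelp moved from position 2 to position 5 and Aspn from position 6 to position 3. Aspn overlapped Dcn with siKlf4, as it did Fmod with Scr, and Fmod, Podn and Omd overlapped as neighbours, so these places were not resolved. In SMCs Dcn (454 TPM), Prelp (441 TPM) and Ogn (398 TPM) came to overlap below Bgn (3824 TPM).

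**Figure D3:**
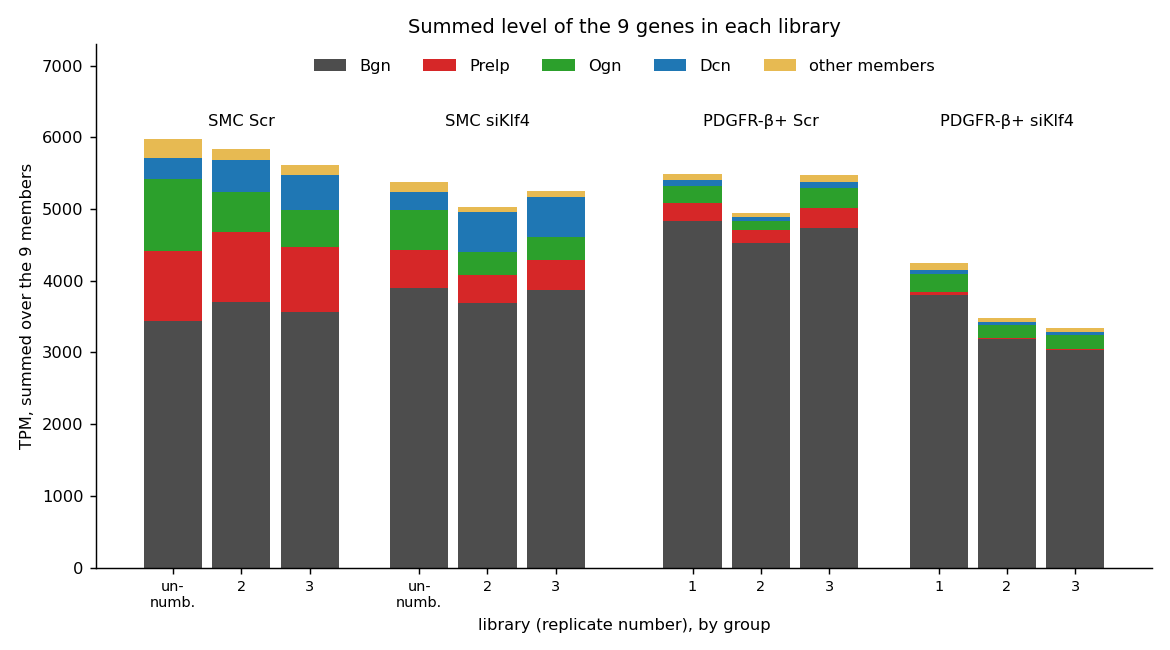
TPM summed over the 9 members in each library (bars, linear axis from 0), stacked by gene and arranged by group. Bgn is the largest block of every bar. The Prelp block narrows from 3.69% to 5.15% of the sum in Scr-treated to 0.478% to 0.696% in siKlf4-treated PDGFR-β+ cells.

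Summed over the 9 genes, the family took 5614 to 5969 TPM in Scr-treated and 5031 to 5377 TPM in siKlf4-treated SMCs, with means of 5806 ± 179 and 5218 ± 175 TPM (SD, n = 3 each). In PDGFR-β+ cells the sum was 4939 to 5484 TPM with Scr and 3347 to 4253 TPM with siKlf4, with means of 5300.2 ± 313 and 3695 ± 488 TPM. The siKlf4 sum was thus 89.9% of the Scr sum in SMCs and 69.7% in PDGFR-β+ cells, and in each cell type every siKlf4 library was below every Scr library. Bgn made up 57.5% to 63.5% of the sum in Scr-treated SMCs, 72.6% to 73.8% with siKlf4 and 86.4% to 91.7% in PDGFR-β+ cells. Without Bgn the sum was 2239 ± 260.4 TPM with Scr and 1395 ± 69.5 TPM with siKlf4 in SMCs, or 62.3%, and 605 ± 176 and 354 ± 80.3 TPM in PDGFR-β+ cells, or 58.5%. The lower sum in SMCs came with lower means of Prelp and Ogn and overlapping values of Bgn, and that in PDGFR-β+ cells with lower means of Bgn and Prelp.

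Of the 9 members, 7 lie in 3 groups of neighbouring family genes. Dcn (chr10:97479609-97518143) and Lum (chr10:97565128-97572703) lie 46984 bases apart on the plus strand of chromosome 10, followed by Kera and Epyc. Kera was listed at 0 in all 12 libraries and Epyc reached at most 0.161 TPM, so the RNA of this group came from Dcn and Lum. Aspn (chr13:49544443-49567565), Omd (chr13:49582462-49592822) and Ogn (chr13:49608046-49624501) follow Ecm2 on the plus strand of chromosome 13, with gaps of 11653, 14896 and 15223 bases. All 4 lie within Cenpp, a centromere protein gene on the opposite strand at 1.70 to 5.27 TPM. The libraries were made with a kit that marks strand, but whether the counting used strand is not given in the sources used here, which matters most for Omd in PDGFR-β+ cells, where its own level was 2.75 to 5.57 TPM. The neighbours differed among themselves in PDGFR-β+ cells, where Aspn was higher with siKlf4 while Omd and Ogn overlapped. In SMCs the 3 had log2 differences of -0.39, -1.01 and -0.78, all with overlapping groups. Beside Prelp and Fmod on chromosome 1, Optc (opticin), 2304 bases from Prelp, was at 1.78 to 2.93 TPM in SMCs, with a log2 difference of 0.26 (SE 0.143, limma adjusted p = 0.21), and at 0.560 to 1.32 TPM in PDGFR-β+ cells. Bgn (chrX:73483602-73495933, plus strand) and Podn (chr4:108014791-108096445, minus strand) have no family gene beside them. Podn shares 52607 bases with Scp2 on the same strand, and Scp2 was at 59.7 to 175 TPM, so reads of the 2 genes in that stretch cannot be told apart by strand.

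**Figure D4:**
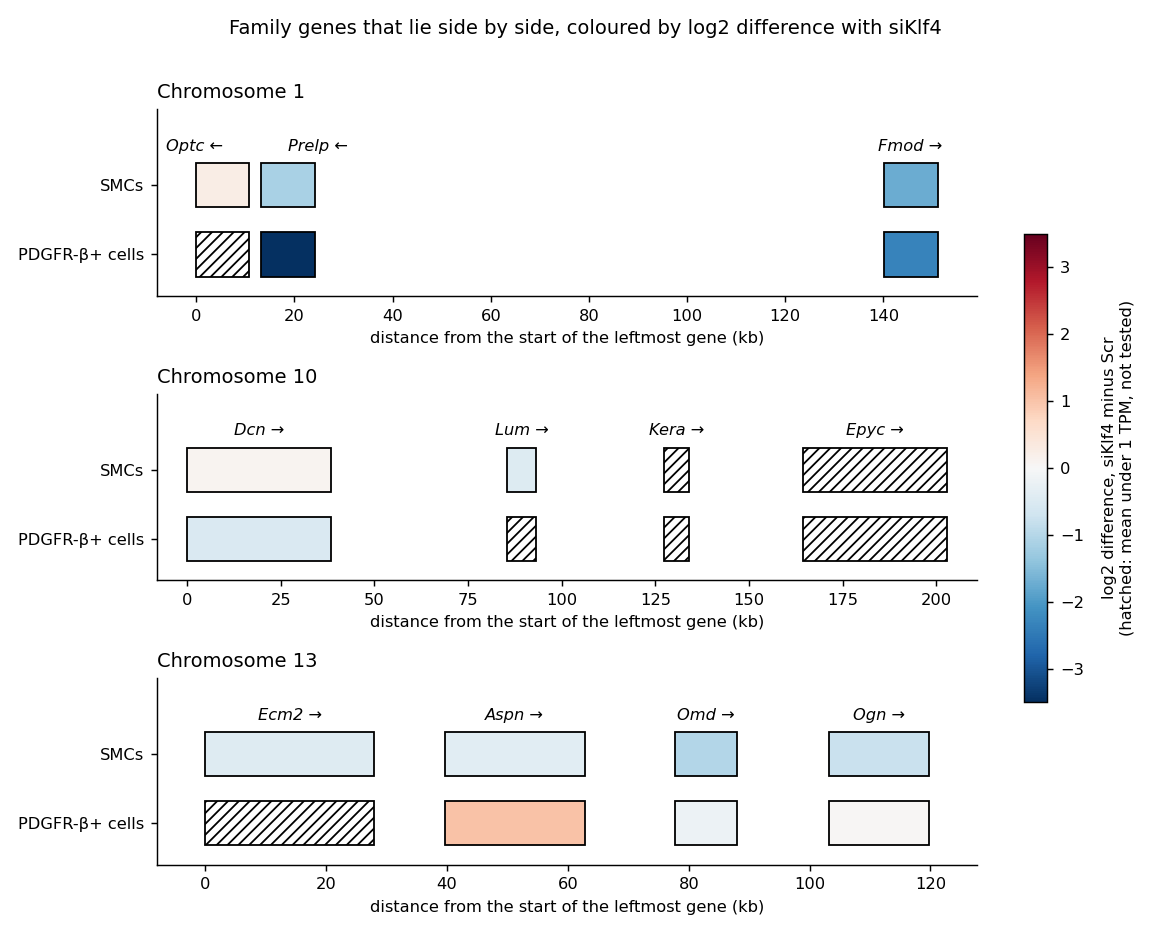
Family genes that lie side by side on 3 chromosomes, drawn to scale as boxes along the distance from the leftmost gene (kb), with arrows beside the names for strand and fill for the log2 difference, siKlf4 minus Scr, in SMCs (upper row) and PDGFR-β+ cells (lower row). Hatched boxes were not tested because their mean was under 1 TPM. Prelp and Fmod are blue in both rows, and Aspn in PDGFR-β+ cells, at 1.02, is the reddest box.

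The spread between libraries of a group was shared by many members. In PDGFR-β+ cells, Scr replicate 2 was the lowest Scr library for 8 of the 9 members (all but Lum), and siKlf4 replicate 1 was the highest siKlf4 library for all 9. In SMCs, the unnumbered library was the highest for 6 of the 9 members with Scr and for 8 of the 9 with siKlf4, and the lowest for Dcn in both. In the unnumbered pair, Omd deviated from its group mean by 0.81 and 0.62, Aspn by 0.76 and 0.69 and Ogn by 0.60 and 0.56 on the log2 scale, and Dcn by -0.44 and -0.79. Fmod, Ogn, Omd and Aspn lay on the same side of their group mean in all 12 libraries. Dcn lay on the same side as Ogn in 6 of 6 PDGFR-β+ libraries and in 0 of 6 SMC libraries. Deviations within a group of 3 sum to 0, so these counts describe the libraries and are not independent points. Bgn stayed within 0.06 of its group mean in the SMC libraries and in the Scr-treated PDGFR-β+ libraries, and within 0.20 with siKlf4 in PDGFR-β+ cells.

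**Figure D5:**
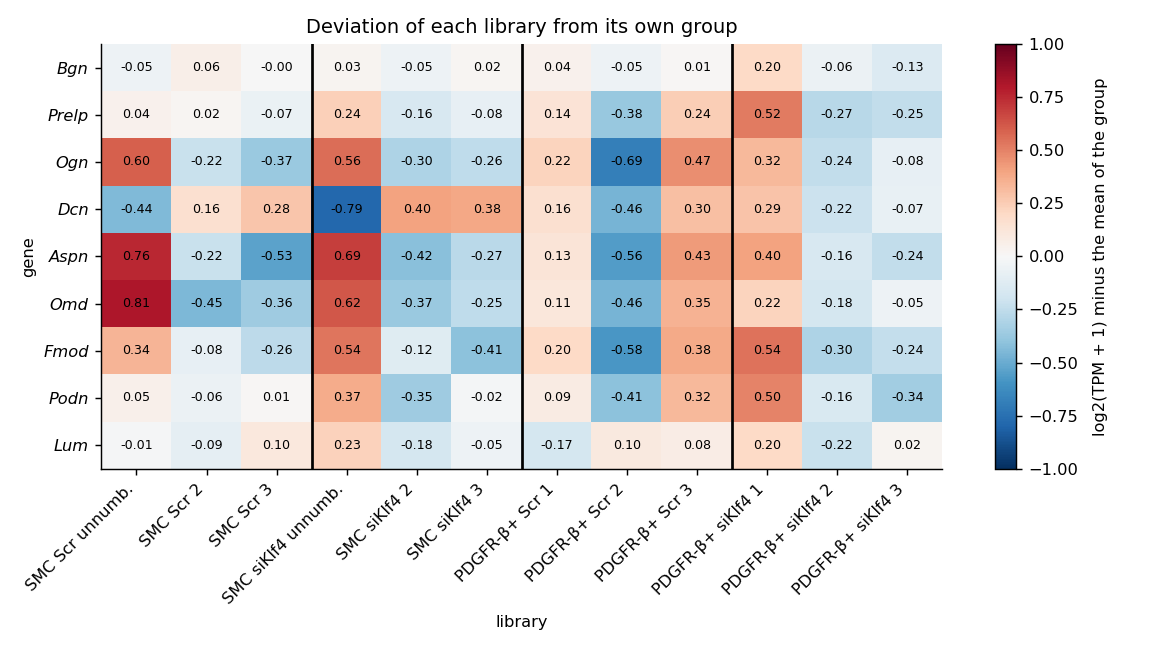
Deviation of log2(TPM + 1) from the mean of the library's own group, for each member (rows) in each of the 12 libraries (columns), with groups separated by lines. The unnumbered SMC libraries are red for Ogn, Aspn and Omd and blue for Dcn, PDGFR-β+ Scr replicate 2 is blue for most members (-0.69 for Ogn), and siKlf4 replicate 1 is red for all 9.

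For each member tested in both cell types, the genes with the most similar level over the 12 libraries were looked up. Likeness was the Pearson correlation of log2(TPM + 1). The search covered the 13032 genes that passed the 1 TPM minimum in SMCs and PDGFR-β+ cells alike, leaving out genes with a Gm or Rik name. Prelp was most like Gda (r = 0.997) and Fam102b (r = 0.995), Fmod like Pgap1 (0.980) and Prss23 (0.978), and Dcn like Tmem176b (0.987) and Ch25h (0.987). Bgn was most like Clcn7 (0.967) and Eif2ak3 (0.949), Aspn like Crbn (0.927) and Acap2 (0.921), and Ogn like Prkg1 (0.982) and Ptprq (0.979). Omd was most like Rab10 (0.994) and Ctso (0.992), and Podn like Slc7a2 (0.992) and Svep1 (0.991). No member was among the closest genes of another. The 12 libraries share 2 cell types and 2 treatments, so the r values are mostly set by the 4 group means and are given without a p.

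Apart from Tsku, the remaining genes of the family were scarce. Of 9 further family genes, 5 passed the minimum in SMCs with 0 past the threshold by limma (at an unadjusted p under 0.05, 0 of the 5), and 1 passed in PDGFR-β+ cells. That gene, Tsku (tsukushi), fell from 47.1 to 36.1 TPM there (log2 difference -0.37, SE 0.0936, limma adjusted p = 0.0165), or -0.33 and not past the threshold without siKlf4 replicate 3. In SMCs Tsku was at 109 TPM with Scr and 91.1 TPM with siKlf4 (log2 difference -0.23, SE 0.209), and it passed without the unnumbered Scr library (-0.47). Chad, like Kera, was listed at 0 in all 12 libraries.

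Some of the enzymes that build the sugar chains of these proteins rose and others fell. Over all genes tested, 28.5% passed the threshold in SMCs and 40.6% in PDGFR-β+ cells. The counts of this list and of the lists that follow stand beside those shares, and no list was tested against them. Of 23 genes for the linker, chondroitin and dermatan sulfate, 22 were tested in each cell type, with 2 higher and 5 lower in SMCs and 2 higher and 6 lower in PDGFR-β+ cells, and medians of 0.04 and -0.09, near those of all genes in SMCs (0.02) and below them in PDGFR-β+ cells (0.10). Chst7, a chondroitin 6-O-sulfotransferase, rose in both (log2 difference 0.65, SE 0.0947, in SMCs and 0.80, SE 0.126, in PDGFR-β+ cells), and Pxylp1, a phosphatase that acts on the linker, fell in both (-0.64, SE 0.110, and -0.69, SE 0.110). In SMCs B3galt6 rose (0.45), while Chst15 (-0.97) and Csgalnact1 (-0.89) fell. In PDGFR-β+ cells Ust rose (0.57), while Csgalnact2 (-0.80), Chst11 (-0.52), Chst15 (-0.50) and B3galt6 (-0.41) fell. The largest limma adjusted p among these was 0.0393. In SMCs B3galt6 lost the threshold without Scr replicate 2 or siKlf4 replicate 2 or 3 (0.40 to 0.45). The most abundant gene of the list was Dse, which makes the dermatan form, in SMCs (120.4 TPM with Scr and 115 TPM with siKlf4) and Chst12 in PDGFR-β+ cells (117 and 98.3 TPM). Chst12 fell there (log2 difference -0.25, SE 0.0731, limma adjusted p = 0.0314). That call was lost without Scr replicate 1 or 2 or siKlf4 replicate 1 or 2 (-0.24 to -0.21). Of 8 keratan sulfate genes, 5 were tested, with 2 lower in SMCs and 3 lower and 1 higher in PDGFR-β+ cells. B4galt1, the most abundant, fell from 327 to 224 TPM in SMCs (-0.55, SE 0.0560) and from 197 to 88.5 TPM in PDGFR-β+ cells (-1.14, SE 0.0895), and B4galt4 fell in both (-0.81, SE 0.152, and -0.76, SE 0.0983). Chst2 rose in PDGFR-β+ cells (1.16, SE 0.124) and Chst1 fell (-0.64, SE 0.215, limma adjusted p = 0.0474), which held only when Scr replicate 3 was the library left out (-0.66 to -0.41 otherwise).

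Of the 11 fibrillar collagen chains, all 11 were tested in SMCs, with 1 higher and 3 lower, and 10 in PDGFR-β+ cells, with 2 higher and 1 lower. Col11a1 rose in both (log2 difference 0.57, SE 0.0652, and 0.49, SE 0.105). In SMCs Col3a1 fell from 1345 to 655 TPM (-1.05, SE 0.156), Col24a1 fell (-0.94, SE 0.158), and Col1a2, the most abundant chain, fell from 1749 to 1367 TPM (-0.36, SE 0.0609). In PDGFR-β+ cells Col1a1, the most abundant there, fell from 1937 to 1264 TPM (-0.63, SE 0.133) and Col27a1 rose (0.87, SE 0.145). The largest limma adjusted p among these was 0.00838.

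Among 11 proteases known to process or cleave these proteins, 10 were tested in each cell type, with 3 higher and 3 lower in SMCs and 3 higher and 5 lower in PDGFR-β+ cells. Bmp1, which trims the propeptide of biglycan and of procollagens, fell in SMCs (log2 difference -0.52, SE 0.0704), and its relative Tll1 rose in both (1.10, SE 0.167, and 0.36, SE 0.0772). Mmp3, a stromelysin that cleaves decorin, was the most abundant of the list in SMCs and fell in both, from 1992 to 1248 TPM (-0.67, SE 0.0646) and from 449 to 149 TPM (-1.55, SE 0.274). Mmp13 (-1.75) and Adamts5 (-0.92) fell and Adamts1 (0.70) rose in PDGFR-β+ cells, where Mmp14 was the most abundant (528 TPM with Scr and 415 TPM with siKlf4, -0.35, SE 0.0760). Htra1 fell in both (-0.57 in SMCs and -0.51 in PDGFR-β+ cells) and Adamts4 rose in both (0.35 and 0.47). In SMCs Mmp2 rose (0.19, limma adjusted p = 0.0488, the largest of the list). Each of these last 3 lost the threshold without single libraries. Htra1 in SMCs did so without Scr replicate 2 or siKlf4 replicate 2 or 3 (-0.59 to -0.50). Adamts4 did so in SMCs without any numbered library (0.31 to 0.35). In PDGFR-β+ cells Adamts4 did so without any Scr library or siKlf4 replicate 1 (0.31 to 0.50). Mmp2 did so without any library but the unnumbered Scr one (0.16 to 0.21).

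Of 13 ligands and receptors known to bind family members, 12 were tested in SMCs, with 6 higher and 1 lower, and 11 in PDGFR-β+ cells, with 4 higher and 4 lower. Tgfb1, a ligand that decorin, biglycan, fibromodulin and asporin bind, rose in SMCs from 24.5 to 47.4 TPM (log2 difference 0.93, SE 0.149) and fell in PDGFR-β+ cells from 50.2 to 27.4 TPM (-0.85, SE 0.0677). The difference between the cell types was 1.78 (SE 0.169, limma adjusted p = 2.5e-05). Egfr, a decorin receptor, went the other way, at -0.44 (SE 0.1003) in SMCs and 0.84 (SE 0.140) in PDGFR-β+ cells. In SMCs Wisp1 (Ccn4), whose product binds decorin and biglycan, rose (1.27, SE 0.300) and so did Bmp2 (0.82, SE 0.183). In PDGFR-β+ cells Tgfb3 (0.44) and Bmp4 (0.41) rose and Tgfb2 (-1.04) and Wisp1 (-0.45) fell. Tgfb3 rose in SMCs as well (0.38). Lrp1, an uptake receptor of decorin and the most abundant gene of the list, fell from 867 to 495 TPM in PDGFR-β+ cells (-0.83, SE 0.164) and was at 892 and 927 TPM in SMCs. The largest limma adjusted p among those that changed was 0.0394. In SMCs Wisp1 (1.12 to 1.15), Egfr (-0.43 to -0.41) and Bmp2 (0.68 to 0.82) lost the threshold without siKlf4 replicate 2 or 3, Bmp2 also without Scr replicate 2. In PDGFR-β+ cells Bmp4 lost it without Scr or siKlf4 replicate 1 (0.33 to 0.37).

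For comparison with other proteoglycans, 1 of the 4 hyaluronan-binding chondroitin sulfate proteoglycans was tested. This was Vcan (versican), at 225 and 185 TPM in SMCs, and it fell from 87.4 to 69.0 TPM in PDGFR-β+ cells (log2 difference -0.34, SE 0.0958, limma adjusted p = 0.0244), a call lost without any library but siKlf4 replicate 1 (-0.36 to -0.26). Of 12 heparan sulfate proteoglycans, 11 were tested in SMCs, with 4 higher and 3 lower, and 10 in PDGFR-β+ cells, with 3 higher and 3 lower. Agrn (agrin), a basement membrane proteoglycan, rose from 40.7 to 109.6 TPM in SMCs (1.42, SE 0.143) and from 11.5 to 184 TPM in PDGFR-β+ cells (3.88, SE 0.110). Sdc1 fell in both (-0.81, SE 0.0711, and -0.71, SE 0.0876), as did Gpc6 (-1.10 and -0.91). Sdc3 (0.78) and Gpc1 (0.62) rose and Gpc3 fell (-1.29) in SMCs, where Sdc4 was the most abundant (576 TPM with Scr and 676 TPM with siKlf4). In PDGFR-β+ cells Gpc2 (1.01) and Gpc4 (0.39) rose, and Hspg2 (perlecan, to which prolargin binds) fell from 454 to 289 TPM (-0.65, SE 0.141). Gpc4 rose in SMCs as well (0.28). The largest limma adjusted p among these was 0.0402. Gpc1 lost the threshold without siKlf4 replicate 2 or 3 (0.57 to 0.59), and Gpc6 in SMCs without siKlf4 replicate 3 (-0.90) and in PDGFR-β+ cells without Scr replicate 2 or any siKlf4 library (-1.01 to -0.86).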

How the data were processed

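Poly(A) RNA of 12 mouse libraries was sequenced as strand-marked read pairs. The authors trimmed the reads, aligned them with HISAT2 to mm10 with GENCODE annotation and estimated abundance with StringTie and ballgown; the versions of these tools, the annotation release and whether counting used strand are not given in the sources used here. The deposited values are TPM, in 1 table for each cell type, and each library sums to 1000000. The authors' own tests used DESeq2 on gene counts, and neither was used here. TPM keeps no depth, so the depth of a library is unknown and no counting error is given. Scaling to a fixed sum also means that a few abundant genes can lower all others.

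Within each cell type, genes whose 6 libraries averaged 1 TPM or more were tested on log2(TPM + 1) with limma 3.58.1 (R 4.3.3; lmFit, eBayes with a trend, two-sided, Benjamini-Hochberg over all genes tested, threshold 0.05). A fold change on this scale understates that of low genes. The difference between cell types was the interaction in 1 limma fit of all 12 libraries, over genes that passed in both. An exact permutation test of 3 against 3 libraries cannot go below p = 0.1 and was not used. Tables were handled with Python 3.11.15, pandas 2.3.3 and numpy 2.4.6. Gene positions came from GENCODE M21, and promoters from RefSeq. The procedure was run on simulated data in which each gene varied independently. The simulation held no deviations shared by the genes of a library, so it cannot speak for those seen here.

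The 9 genes and the gene lists were chosen with earlier results of these data known. Beyond the 9 genes and Klf4, the text names at most 3 genes of each list in each direction and cell type, those past the threshold with the largest log2 difference, the most abundant gene of each list, the 2 genes most like each member, and markers. A few further genes (Kera, Chad, Epyc, Optc, Gm42418 and genes that overlap a member) were named after their values were seen. So were the changes of B3galt6, Chst15, Htra1, Wisp1, Tgfb3 and Gpc4 in the cell type where they were not among the largest. Those changes are not in the counts of recalculations below. Ccn4 is listed under its older symbol Wisp1. Alternatives changed the pseudocount, the minimum, the scaling, the variance trend, the pooling of cell types, the libraries used and the replicate block.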

Additional observations from a re-analysis of the deposited data

Results flagged for a closer look

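Of the 49 genes named from the lists and tested in both cell types, Klf4 included, 25 are given here. Their siKlf4 effect differed between the cell types by the interaction in limma (adjusted p under 0.05), as it did in 33% of all 13032 genes tested in both. Values are the log2 difference in SMCs minus that in PDGFR-β+ cells. Klf4 itself differed by 1.19 (adjusted p = 0.00069), so the knockdown was weaker in SMCs, and its part in the other differences was not tested.

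Among the enzymes of the sugar chains, the difference was 0.87 for B3galt6, -1.496 for Csgalnact1, -0.67 for Ust, 0.50 for Csgalnact2, 0.42 for Chst11, 0.60 for B4galt1 and -1.18 for Chst2. Csgalnact1, which starts chondroitin chains, was at -0.89 in SMCs and 0.61 in PDGFR-β+ cells, and B3galt6 at 0.45 and -0.41. The PDGFR-β+ value of Csgalnact1 did not pass the threshold (limma adjusted p = 0.0667). The difference for Csgalnact2 no longer passed in 7 of the 12 fits that left out 1 library (0.41 to 0.52).

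Among the fibrillar collagens it was -0.92 for Col3a1, -0.60 for Col24a1, -0.48 for Col1a2 and -0.79 for Col27a1. The call was lost without 1 library in 8 of 12 fits for Col3a1 (-0.99 to -0.67), in 11 of 12 for Col24a1 (-0.66 to -0.45) and in 4 of 12 for Col1a2 (-0.46 to -0.40).

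Among the proteases it was 0.73 for Tll1, -0.70 for Bmp1, 2.12 for Mmp13, 0.82 for Adamts5 and 0.51 for Mmp14. Mmp13, a collagenase, was at 0.36 in SMCs and -1.75 in PDGFR-β+ cells. Its SMC value did not pass the threshold (limma adjusted p = 0.2185), and the SMC groups overlapped.

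Among the ligands and receptors it was 1.71 for Wisp1, 1.78 for Tgfb1, -1.28 for Egfr and 0.87 for Lrp1. Among the heparan sulfate proteoglycans it was -2.46 for Agrn, 0.72 for Sdc3, -1.14 for Gpc2 and 0.89 for Hspg2. Agrn rose in both cell types, at 1.42 and 3.88, so its difference is one of size.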

How the results depend on the processing

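Prelp and Fmod were lower and past the threshold under all 16 alternatives in SMCs and all 14 in PDGFR-β+ cells (Prelp -1.24 to -1.04 and -3.74 to -3.35, Fmod -2.00 to -1.52 and -2.63 to -2.14). The number of members lower in SMCs, 4, was 7 with a term for the naming of libraries and 2 to 5 without 1 library. It was 6 in the numbered libraries, with or without a replicate block. With no filter on low values it was 3, with the call of Lum lost, against 11.3% of all genes past the threshold. The number of members higher in SMCs, 0, was 1 with quantile normalization (Bgn) and 1 in the numbered libraries alone (Dcn) and 0 to 0 without 1 library. In PDGFR-β+ cells 3 members were lower, 3 to 5 without 1 library, and 1 higher, 0 to 1 without 1 library. With no filter on low values 2 were lower and 0 higher there, against 19.1% of all genes past the threshold. The call of Bgn was lost with no filter and with quantile normalization (-0.26). Over all genes, 2136 were higher and 1774 lower in SMCs, 1157 to 2037 and 1044 to 1578 without 1 library. In PDGFR-β+ cells 3461 were higher and 2098 lower, 2573 to 3311 and 1561 to 1987 without 1 library, 2634 and 2979 with median-ratio scaling and 2789 and 2825 with quantile normalization. The summed level with siKlf4 as a percentage of that with Scr, 89.9% in SMCs and 69.7% in PDGFR-β+ cells, was 88.4% to 91.5% and 64.4% to 73.0% without 1 library, and 62.3% and 58.5% without Bgn. Lrp1 in SMCs, 0.05 and not past the threshold, was -0.0934 to 0.123 without 1 library and below 0 without the unnumbered Scr library or siKlf4 replicate 2. Outside the 9 members, over 93 named results and 1511 recalculations, 1384 kept direction and side of the threshold, 121 lost and 4 gained the threshold, and these 2 changed sign. Among the members, Dcn in SMCs, Ogn in PDGFR-β+ cells and the cell type difference of Podn each changed sign in 3 alternatives. The causes were not tested.

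Replicate numbers were not taken to pair the libraries. Same-numbered deviations correlated at 0.0732, -0.0158 and 0.0043 across genes in PDGFR-β+ cells. In SMCs they correlated at 0.185 and 0.199 for the 2 numbered pairs and at 0.361 for the unnumbered libraries, against -0.217 to 0.0499 for libraries of different names, so each library was most like its namesake. That is a hint from the data, since the unnumbered columns carry no number to pair by. With a replicate block, 3486 genes were higher and 2155 lower in PDGFR-β+ cells (25.5% and 15.7% of 13694 tested). There 4 members were lower (Dcn added) and 1 higher. The block in the numbered SMC libraries gave 1500 higher and 1353 lower (10.9% and 9.85% of 13743 tested), with 6 members lower and 0 higher. Depth cannot be read from TPM, which limits Lum and Omd in PDGFR-β+ cells most.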
